A study of Homo sapiens with 6 samples.

Results

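Matrix metalloproteinases and their inhibitors were followed in Ovcar8 cells, an established cell line that grew from a human high-grade serous carcinoma of the ovary. The set was chosen by gene name and holds 9 of the 58735 genes in the count table: 6 proteases (MMP1, MMP2, MMP14, MMP15, ADAM17 and ADAMTS1) and 3 tissue inhibitors of metalloproteinases (TIMP1, TIMP2 and TIMP3). The tested cells had been kept for 48 h without serum (serum-starved, 3 libraries), and the controls for the same time in RPMI-1640 with 5% fetal bovine serum (FBS, 3 libraries). The labels name no genetic change and no drug in either group. The cells are a single line with no host tissue around them. Nothing in the labels tells separate cultures from repeat libraries of a culture, so the p-values rest on a spread that may be technical.

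Metalloproteinases cut proteins with a zinc ion held in the active site, and most are made as inactive precursors. Secreted MMPs cut collagens and other matrix proteins, membrane-type MMPs act at the cell surface, ADAM proteases release the outer parts of membrane proteins, and ADAMTS proteases cut matrix proteoglycans. TIMPs block them by filling the active site. TIMP2 has a further role: together with MMP14 it forms the surface complex in which the MMP2 precursor is cut. In ovarian cancer this system is known for its part in attachment to and invasion of the peritoneal lining.

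Without serum, none of the 7 measurable members passed the test over all genes. The difference furthest from 0 was in MMP1, an interstitial collagenase, which was lower on average in serum-starved cells (log2 fold change -1.38). ADAM17, a sheddase, came next at 0.96, a value that rests on 1 serum-starved library, and TIMP2 followed at 0.71. MMP2 and TIMP3 had no count in any of the 6 libraries. Of all 9 members, 7 passed the filter on low counts and were tested with edgeR's quasi-likelihood test, adjusted by Benjamini-Hochberg over 13772 genes. The count of members called was 0 in edgeR, 0 in DESeq2 and 0 in limma-voom, in a comparison in which 0.283% of all genes tested were called. At an unadjusted p under 0.05 there were 2 of the 7, MMP1 and TIMP2, against 10.4% of all genes tested. In 1 member, TIMP2, the serum-starved and FBS libraries did not overlap, against 17.7% of all genes tested. The members' median log2 fold change was 0.49, beside -0.02 over all genes tested, with 5 above 0 and 2 below. In these bulk libraries, fewer cells making a transcript and less of it per cell cannot be told apart.

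The libraries held 16379416 to 19558484 counts assigned to genes. Per the labels the cells are ovarian cancer cells. Of 9 epithelial and serous ovarian markers 8 had counts, led by KRT8, KRT18 and KRT7. PAX8 had 7655 counts over all libraries. EPCAM (295 counts), WT1 (211) and CDH1 (60) were low, KRT19 had 5 and MUC16 was at 0. The summed level was 8453 to 11781 CPM (counts scaled to library size) in serum-starved libraries and 6981 to 11895 CPM in FBS libraries. Nearly all of it came from KRT8, KRT18 and KRT7. Of 7 fibroblast markers 5 had counts; the sum was 763 to 832 CPM in serum-starved libraries and 319 to 577 CPM in FBS libraries, nearly all of it COL1A1, while DCN and COL1A2 were at 0. The 5 leukocyte markers summed to 1.85 to 3.13 CPM in serum-starved libraries and 2.09 to 4.03 CPM in FBS libraries. The 3 endothelial markers summed to 1.54 to 4.55 CPM in serum-starved libraries and 0.26 to 0.774 CPM in FBS libraries, mostly VWF. The part of these markers in the results below was not tested.

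The promoter stretches of 3 members are shown because 2 of these genes, TIMP1 and MMP14, gave abundant transcripts here while TIMP3 gave no count. They come from RefSeq's promoter windows on GRCh38.p14, which matched 5 of the 9 members (MMP14, MMP15, ADAM17, TIMP1 and TIMP3). Only the bases upstream of the first annotated start are printed, 5′ to 3′ on the gene's strand, with each CpG dinucleotide in capitals. The TIMP3 stretch is chr22:32801455-32801700 (+), the TIMP1 stretch chrX:47582186-47582312 (+) and the MMP14 stretch chr14:22836335-22836556 (+).
TIMP3: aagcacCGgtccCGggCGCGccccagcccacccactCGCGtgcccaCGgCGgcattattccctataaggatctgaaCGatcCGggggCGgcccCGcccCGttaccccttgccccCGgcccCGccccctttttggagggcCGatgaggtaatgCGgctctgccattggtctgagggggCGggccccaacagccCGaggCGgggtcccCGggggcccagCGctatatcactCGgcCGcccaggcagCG
TIMP1: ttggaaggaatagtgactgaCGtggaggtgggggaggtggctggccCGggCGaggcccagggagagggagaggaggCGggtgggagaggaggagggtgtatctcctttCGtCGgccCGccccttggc
MMP14: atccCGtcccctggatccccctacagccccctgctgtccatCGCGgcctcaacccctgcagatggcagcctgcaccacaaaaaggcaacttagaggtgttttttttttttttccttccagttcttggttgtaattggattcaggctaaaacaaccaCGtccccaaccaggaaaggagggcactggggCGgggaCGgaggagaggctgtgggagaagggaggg

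The full window of 300 bases held 31 CpG in TIMP3, 16 in TIMP1 and 10 in MMP14, and the median over all 35116 windows was 14. MMP15 and ADAM17 had 39 and 36 in theirs. By number of CpG, TIMP3, which had no count, lay between TIMP1 and ADAM17. The relation of CpG density to level was not tested, and MMP1, MMP2, TIMP2 and ADAMTS1 had no window. DNA methylation was not measured in these files. None of the 5 windows held TGANTCA, a consensus for AP-1 (FOS and JUN family) factors that reads the same on both strands. Of all windows, 7.71% held it. Only these exact letters were searched, so sites that differ from them, such as TGAGTAA in the TIMP1 window, were not counted.

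**Figure D1:**
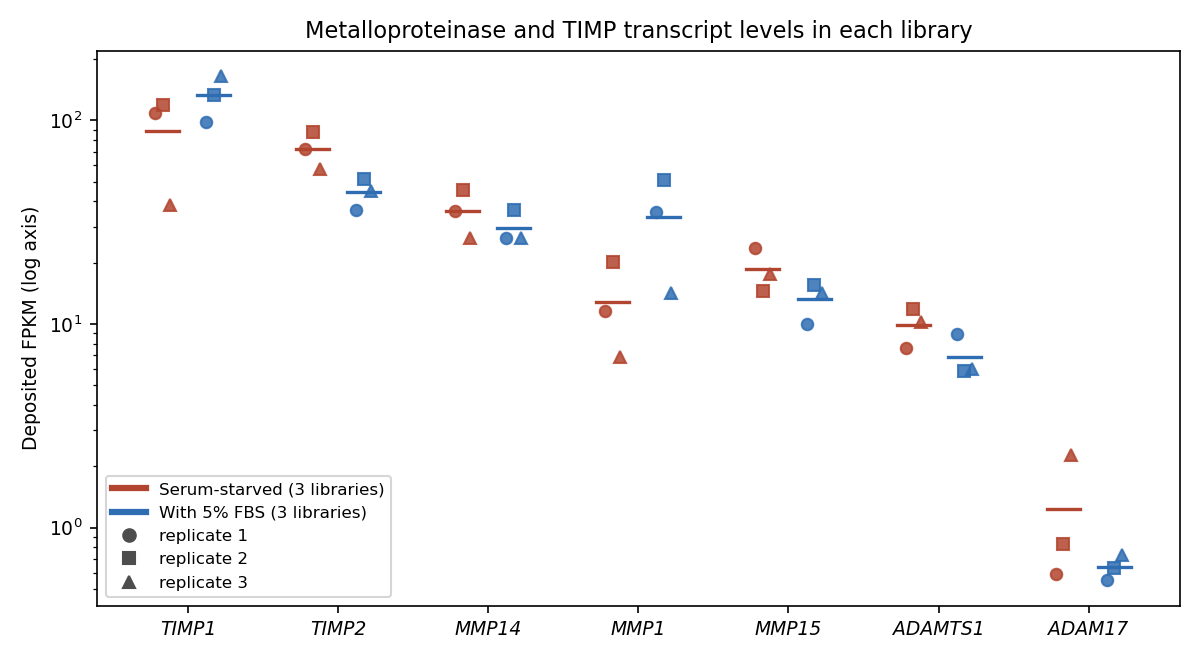
Deposited FPKM (log axis) of the 7 members with counts, with serum-starved libraries in red and FBS libraries in blue; markers are replicates and bars are group means. By group mean TIMP1 and TIMP2 lie highest and ADAM17 lowest in both groups, and the libraries of the groups are apart only in TIMP2.

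Levels were compared between genes in the deposited FPKM (fragment counts scaled to gene length and library size). The levels spanned a wide range. In serum-starved cells the order was TIMP1 (88.9 ± 44.1 FPKM), TIMP2 (72.4 ± 14.8), MMP14 (35.8 ± 9.40), MMP15 (18.5 ± 4.64), MMP1 (12.9 ± 6.73), ADAMTS1 (9.91 ± 2.16) and ADAM17 (1.23 ± 0.910; SD, n = 3 each). In FBS cells it was TIMP1 (132 ± 33.4 FPKM), TIMP2 (44.2 ± 7.64), MMP1 (33.5 ± 18.5), MMP14 (29.7 ± 5.68), MMP15 (13.2 ± 2.92), ADAMTS1 (6.91 ± 1.73) and ADAM17 (0.639 ± 0.0922; SD, n = 3 each). MMP1 had rank 5 in serum-starved cells and rank 3 in FBS cells. Neighbours whose library ranges overlapped were TIMP1 and TIMP2, MMP15 and MMP1, and MMP1 and ADAMTS1 in serum-starved cells, and TIMP2 and MMP1, and MMP1 and MMP14 in FBS cells. All other neighbours among these 7 lay apart.

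MMP1 (ENSG00000196611, chromosome 11, 102789920 to 102798160, GRCh38) encodes the collagenase that opens the triple helix of fibrillar collagen. Its level was 23.4, 40.8 and 13.9 CPM in serum-starved replicates 1, 2 and 3, against 72.2, 102 and 28.7 CPM in FBS replicates 1, 2 and 3. FBS replicate 3 lay inside the serum-starved range, and the other two FBS libraries lay above it. The log2 fold change was -1.38 (SE 0.43, 95% interval -2.28 to -0.48), with an edgeR p of 0.00482 and an adjusted p of 0.272. MMP1 has a transcript GC content of 43.4%, in the second-lowest decile of genes tested. MMP1 deviated from its 6-library mean by -0.68, 0.12 and -1.43 on the log2 scale in serum-starved libraries, and by 0.94, 1.44 and -0.39 in FBS libraries. The median gene of that decile deviated by -0.61, -0.15 and 0.37 in serum-starved libraries, and by 0.50, -0.03 and 0.02 in FBS libraries. MMP1 and its GC decile lay on the same side in replicate 1 of each group and on opposite sides in serum-starved replicates 2 and 3. In FBS replicates 2 and 3 the decile median was near 0. MMP1 is also in the second-lowest length decile. The median gene of that length decile deviated by 0.16, 0.08 and -0.42 in serum-starved libraries, and by 0.11, 0.15 and 0.11 in FBS libraries. After GC content and gene length were corrected for in each library, the log2 fold change of MMP1 was -0.87 (edgeR adjusted p = 0.338). With that correction and a replicate block it was -0.82 (edgeR adjusted p = 0.0862). With the replicate block alone it was -1.33 (edgeR adjusted p = 0.0932). With no filter on low counts MMP1 passed (log2 fold change -1.40, edgeR adjusted p = 0.00912). No other member passed in any alternative.

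MMP14 and MMP15 are membrane-type proteases; MMP14 cuts fibrillar collagen at the cell surface and activates the MMP2 precursor. MMP14 (ENSG00000157227, chromosome 14, 22836557 to 22849027) was at 163, 208 and 121 CPM in serum-starved libraries, against 122, 165 and 121 CPM in FBS libraries, so the groups overlapped. Its log2 fold change was 0.27 (SE 0.30, 95% interval -0.36 to 0.90, edgeR adjusted p = 0.813). Leaving out serum-starved replicate 2 gave 0.06, and leaving out serum-starved replicate 3 or FBS replicate 2 gave 0.44; none of these passed. MMP15 (ENSG00000102996, chromosome 16, 58025566 to 58046901) was at 107, 65.7 and 79.7 CPM in serum-starved libraries, against 45.8, 70.1 and 63.8 CPM in FBS libraries. Serum-starved replicate 2 lay inside the FBS range and the other two lay above it. Its log2 fold change was 0.49 (SE 0.30, 95% interval -0.14 to 1.11, edgeR adjusted p = 0.591). It was 0.30 without serum-starved replicate 1 and 0.32 without FBS replicate 1.

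MMP2, the gelatinase that cuts basement membrane collagen (ENSG00000087245, chromosome 16, 55389700 to 55506691), had 0 counts in all 6 libraries. A count of 0 allows up to 3 counts, which corresponds to 0.132 to 0.204 CPM in serum-starved libraries and 0.152 to 0.195 CPM in FBS libraries and covers counting error only. Set against that floor per length, MMP14 transcripts were at least 882-fold higher than MMP2 transcripts in each serum-starved library and at least 686-fold higher in each FBS library. The protease and the inhibitor known to form the activating complex were therefore transcribed while the transcript of its substrate was not detectable at this depth. MMP2 was not alone in this: 4490 of the 19951 protein-coding genes, 22.5%, had no count in any library.

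ADAM17, also called TACE, releases TNF and ligands of the EGF receptor from the membrane. It (ENSG00000151694, chromosome 2, 9488486 to 9556732) was at 6.52, 9.22 and 25.1 CPM in serum-starved libraries, against 6.15, 6.91 and 8.06 CPM in FBS libraries. Serum-starved replicate 3 alone was high, and serum-starved replicate 1 lay inside the FBS range. The log2 fold change was 0.96 (SE 0.46, 95% interval -0.00041 to 1.92, edgeR adjusted p = 0.481). Without serum-starved replicate 3 it was 0.16 (edgeR adjusted p = 0.884). ADAM17 lies in the highest length decile, whose median gene deviated by 0.47 on the log2 scale in serum-starved replicate 3, while ADAM17 itself deviated by 1.48 there. It is also in the second-lowest GC decile, whose median gene deviated by 0.37 in that library. In serum-starved replicate 1 that GC decile was at -0.61 and ADAM17 at -0.45, and in FBS replicate 1 they were at 0.50 and -0.54. With the GC and length correction its log2 fold change was 0.87 (edgeR adjusted p = 0.192). ADAM17 also shares 1323 exon bases, 12.3% of its own, with IAH1 on the opposite strand. IAH1 had 388, 658 and 671 counts in serum-starved libraries and 430, 473 and 516 in FBS libraries. Whether counting used strand is not given in the sources used here, and without strand, reads from the shared bases cannot be told apart.

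ADAMTS1 cuts the proteoglycans versican and aggrecan (ENSG00000154734, chromosome 21, 26835747 to 26845409). Its level was 55.0, 86.4 and 74.2 CPM in serum-starved libraries, against 65.3, 41.9 and 43.1 CPM in FBS libraries. FBS replicate 1 lay above serum-starved replicate 1, so the groups overlapped. The log2 fold change was 0.52 (SE 0.30, 95% interval -0.11 to 1.15, edgeR adjusted p = 0.569). Its substrate versican, VCAN, had 32 counts over the 6 libraries and was below the filter.

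**Figure D2:**
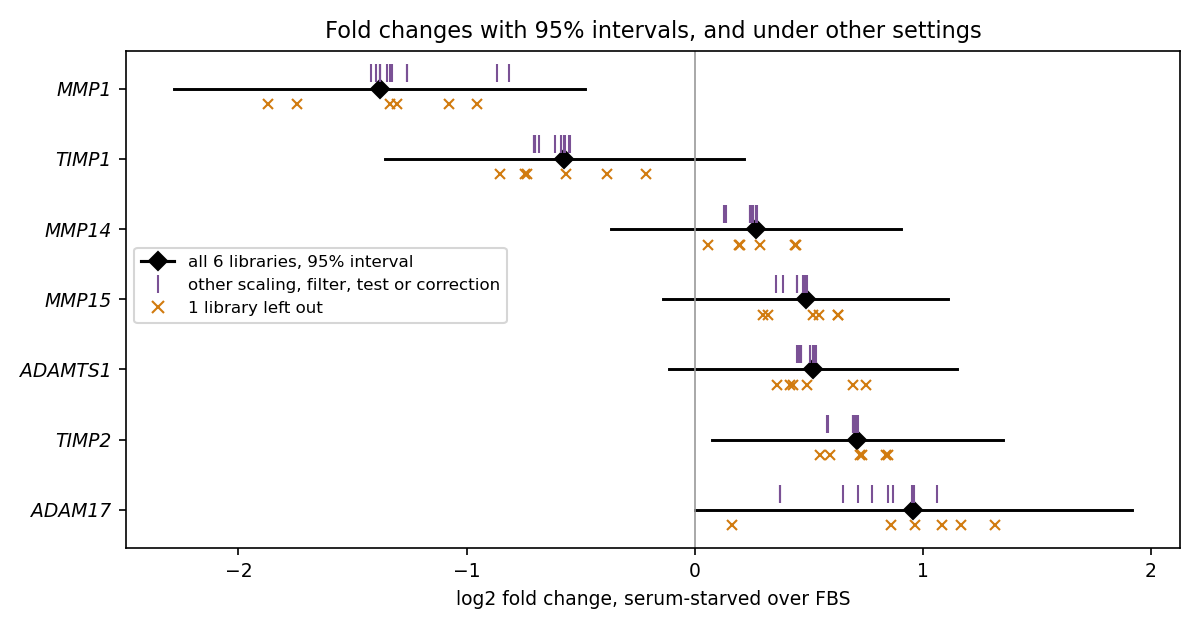
Log2 fold change, serum-starved over FBS, of the 7 tested members: diamonds and lines are the estimates and 95% intervals from all 6 libraries, upper ticks are other settings and lower crosses leave out 1 library. MMP1 runs from -1.87 to -0.82 over the alternatives and TIMP2 from 0.55 to 0.85, while ADAM17 is at 0.16 in 1 of its 6 crosses.

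Among the inhibitors, TIMP2 (ENSG00000035862, chromosome 17, 78852977 to 78925387) was at 415, 506 and 334 CPM in serum-starved libraries, against 213, 295 and 258 CPM in FBS libraries. Every serum-starved library lay above every FBS library. The log2 fold change was 0.71 (SE 0.30, 95% interval 0.08 to 1.35), with an edgeR p of 0.0304 and an adjusted p of 0.419. It ran from 0.55 to 0.85 over the 18 alternatives, with adjusted p-values (edgeR, DESeq2 or limma) from 0.0901 to 0.997. TIMP2 lies in the sixth decile by GC content and by length, where the median gene deviated by at most 0.11 on the log2 scale in any library. With the GC and length correction its log2 fold change was 0.58 (edgeR adjusted p = 0.177).

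TIMP1 binds most secreted MMPs and is known as a gene that serum induces in fibroblasts. TIMP1 (ENSG00000102265, chromosome X, 47582313 to 47586789) was at 172, 189 and 60.7 CPM in serum-starved libraries, against 157, 209 and 260 CPM in FBS libraries. Serum-starved replicate 3 alone was low, and the other two serum-starved libraries lay inside the FBS range. The log2 fold change was -0.57 (SE 0.37, 95% interval -1.36 to 0.21, edgeR adjusted p = 0.630), and without serum-starved replicate 3 it was -0.21. It was -0.38 without FBS replicate 3. TIMP1 lies in the lowest length decile, whose median gene deviated by -0.53 on the log2 scale in serum-starved replicate 3, while TIMP1 itself deviated by -1.40 there. With the GC and length correction its log2 fold change was -0.54 (edgeR adjusted p = 0.263).

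TIMP3, the TIMP that binds the matrix and also blocks ADAM17, had 0 counts in all 6 libraries (ENSG00000100234, chromosome 22, 32801701 to 32863043). Against the floor of 3 counts per length, TIMP2 transcripts were at least 1663-fold higher than TIMP3 transcripts in each serum-starved library and at least 1079-fold higher in each FBS library. SYN3, the gene on the opposite strand around TIMP3, had 2 counts in all. The cells therefore held transcripts of TIMP1 and TIMP2. TIMP4 was low, with 146 counts over the 6 libraries: 31, 42 and 1 in serum-starved libraries and 40, 26 and 6 in FBS libraries. In serum-starved replicate 3 TIMP4 was detected by 1 count alone, too few to set its level there.

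The balance of protease and inhibitor transcripts was read as FPKM ratios inside each library, which do not depend on how libraries are scaled. They are given as a description, with no test. Protein and enzyme activity were not measured in these files. Of the 12 ratios formed, 3 were higher in all serum-starved libraries, 3 were lower in all of them, and in 6 the groups overlapped. Ratios of each protease to each TIMP were planned. Those of TIMP2 to TIMP1 and of MMP1 to MMP14 were added to them, and both are among the ratios without overlap. Over the ratios of all pairs of the 13199 tested genes with a count in every library, the groups did not overlap in 19.1%. MMP1 per TIMP2 was 0.161, 0.230 and 0.119 in serum-starved libraries, against 0.970, 0.990 and 0.318 in FBS libraries. Every serum-starved library lay below every FBS library. MMP1 per TIMP1 was 0.107, 0.169 and 0.179 in serum-starved libraries, against 0.359, 0.382 and 0.0863 in FBS libraries, and there the groups overlapped through FBS replicate 3. MMP14 per TIMP2, the pair of the MMP2-activating complex, was 0.495, 0.517 and 0.457 in serum-starved libraries, against 0.724, 0.703 and 0.593 in FBS libraries. This ratio varied by 6.18% among serum-starved libraries and by 10.5% among FBS libraries (coefficient of variation). That was the smallest spread of the 12 ratios in serum-starved libraries but not in FBS libraries. MMP15 per TIMP2 varied by 7.10% among FBS libraries and by 32.9% among serum-starved libraries. The spread over other gene pairs was not measured. TIMP2 transcripts exceeded MMP14 transcripts per length in all 6 libraries. MMP14 per TIMP1 was higher without serum, at 0.327, 0.379 and 0.689 in serum-starved libraries, against 0.268, 0.271 and 0.161 in FBS libraries. MMP15 per TIMP1 was 0.216, 0.121 and 0.458 in serum-starved libraries, against 0.101, 0.117 and 0.0857 in FBS libraries, where serum-starved replicate 2 lay just above the FBS range.

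TIMP2 per TIMP1 was 0.662, 0.732 and 1.51 in serum-starved libraries, against 0.370, 0.386 and 0.271 in FBS libraries, so the groups did not overlap. TIMP1 was the more abundant TIMP per length in every library except serum-starved replicate 3. MMP1 per MMP14 was 0.326, 0.445 and 0.259 in serum-starved libraries, against 1.34, 1.41 and 0.537 in FBS libraries. MMP15 per TIMP2 was 0.327, 0.165 and 0.304 in serum-starved libraries, against 0.274, 0.303 and 0.316 in FBS libraries, and the groups overlapped. They also overlapped in the ratios of ADAM17 and of ADAMTS1 to either TIMP. ADAM17 per TIMP1 was 0.00545, 0.00699 and 0.0594 in serum-starved libraries, against 0.00560, 0.00473 and 0.00445 in FBS libraries, with serum-starved replicate 3 alone far above the rest. ADAM17 per TIMP2 ran from 0.00824 to 0.0394 in serum-starved libraries and from 0.0123 to 0.0164 in FBS libraries. ADAMTS1 per TIMP1 was 0.0699 to 0.267 in serum-starved libraries and 0.0362 to 0.0905 in FBS libraries. ADAMTS1 per TIMP2 lay between 0.106 and 0.177 in serum-starved libraries and between 0.113 and 0.245 in FBS libraries. The ratios share genes and libraries and are not independent of each other, and a difference in GC content or length between the 2 genes of a ratio carries into it.

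**Figure D3:**
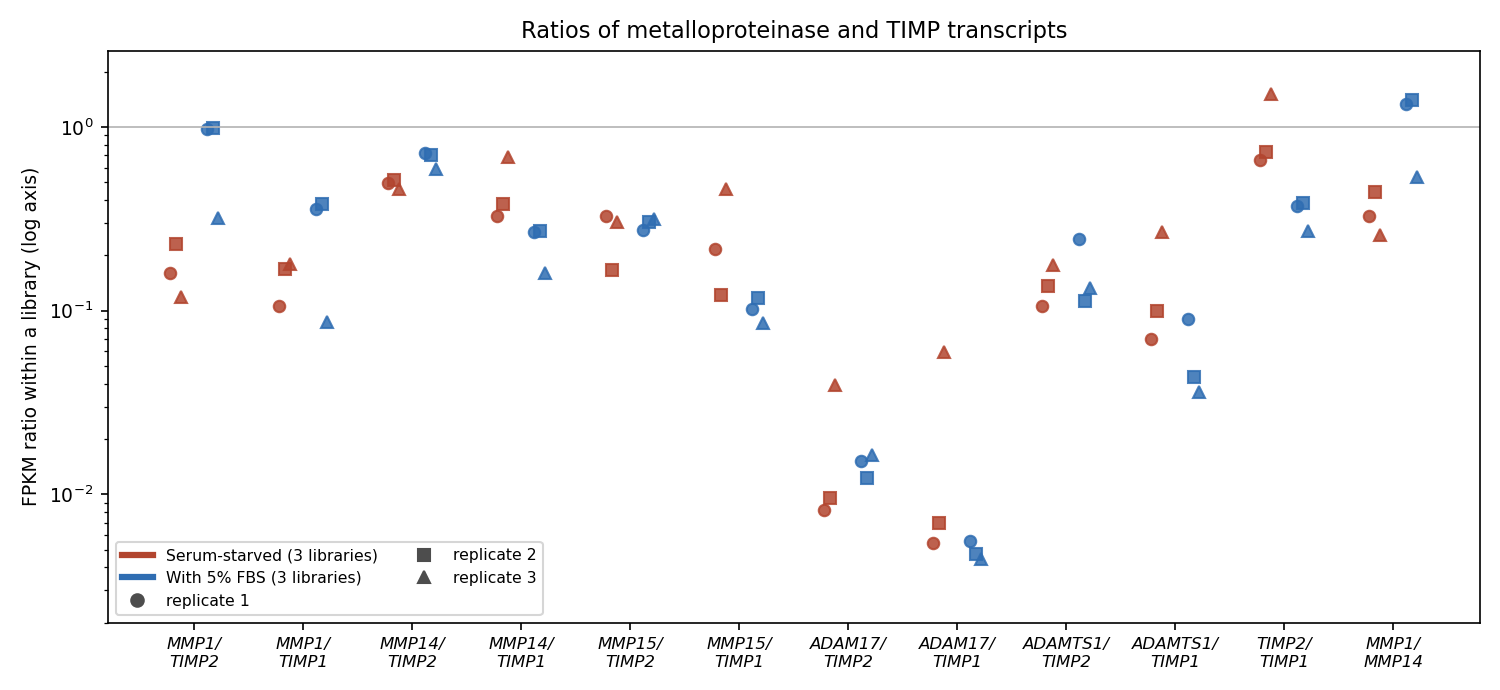
FPKM ratio of the upper to the lower gene inside each library (log axis), with serum-starved libraries in red and FBS libraries in blue and markers as replicates. MMP1/TIMP2, MMP14/TIMP2 and MMP1/MMP14 lie lower in all serum-starved libraries, MMP14/TIMP1, MMP15/TIMP1 and TIMP2/TIMP1 lie higher, and the other 6 ratios overlap.

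The rest of the system was read from 7 lists of 82 other genes, of which 53 were tested. PLAT alone rose and none fell, 1 of 53 genes against 0.283% of all genes tested. In 8 of the 53, PLAT among them, the groups did not overlap, against 17.7% of all genes tested. PLAT encodes tissue plasminogen activator, which makes plasmin, a protease able to activate several MMP precursors. It was at 113, 183 and 114 CPM in serum-starved libraries, against 46.2, 48.9 and 43.4 CPM in FBS libraries, so the groups did not overlap. The log2 fold change was 1.56 (SE 0.30, edgeR adjusted p = 0.0269). It passed in 11 of 18 alternatives, and leaving out 1 library ended the call 4 times: the edgeR adjusted p was then 0.235 (serum-starved replicate 2), 0.355 (FBS replicate 1), 0.165 (FBS replicate 2) or 0.190 (FBS replicate 3). In the same list of activation and trafficking, 9 of 10 genes tested did not pass. They included BSG, the MMP inducer basigin, at 1098 ± 496 CPM in serum-starved cells and 1485 ± 225 CPM in FBS cells (log2 fold change -0.44, edgeR adjusted p = 0.740; SDs over n = 3). They also included FRMD8, which steadies the iRhom and ADAM17 complex, at 64.3 ± 21.5 CPM in serum-starved cells and 58.9 ± 7.59 CPM in FBS cells. PLG, the gene of plasminogen itself, had no count.

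Of 19 other MMP genes, 7 were tested and none passed, 8 had 1 to 58 counts in all, and 4 had none. The highest by level were MMP23B, MMP17, a membrane-type MMP on a lipid anchor, and MMP19. MMP17 was at 24.4, 18.9 and 10.2 CPM in serum-starved libraries, against 8.49, 10.4 and 11.8 CPM in FBS libraries (log2 fold change 0.80, edgeR adjusted p = 0.473). MMP19 had a log2 fold change of 0.07 (SE 0.33, edgeR adjusted p = 0.965). MMP23B was at 8.90, 13.8 and 2.47 CPM in serum-starved libraries, against 6.55, 8.34 and 32.0 CPM in FBS libraries, with FBS replicate 3 alone high. The median log2 fold change of the 7 was 0.51.

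Of 11 other ADAM proteases 6 were tested and none passed, with a median log2 fold change of -0.50. ADAM15, a protease that also carries an integrin-binding site, was the most abundant by FPKM, at 341 ± 179 CPM in serum-starved cells and 273 ± 57.6 CPM in FBS cells (SD, n = 3). ADAM9 was at 37.8 ± 5.46 CPM in serum-starved cells and 53.7 ± 22.8 CPM in FBS cells, and ADAM19 at 50.1 ± 23.0 CPM in serum-starved cells and 43.0 ± 5.66 CPM in FBS cells. Of 18 other ADAMTS proteases 11 were tested and none passed (median 0.26). ADAMTS7, which cuts cartilage oligomeric matrix protein, did not overlap between groups, at 10.2, 12.9 and 8.10 CPM in serum-starved libraries against 4.01, 7.39 and 6.30 CPM in FBS libraries (log2 fold change 0.82, edgeR adjusted p = 0.495). ADAMTS6 and ADAMTS2 had log2 fold changes of -0.35 and 0.26. Of 3 other inhibitors, RECK, a membrane-anchored MMP inhibitor, had a log2 fold change of 0.32 and TIMP4 one of 0.14, and A2M had 10 counts.

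Of 10 matrix and cell surface substrates 7 were tested and none passed (median 0.28). COL1A1, a chain of type I collagen, was at 793, 831 and 762 CPM in serum-starved libraries, against 318, 571 and 577 CPM in FBS libraries (log2 fold change 0.70, edgeR adjusted p = 0.457). Its groups did not overlap. COL1A2, the partner chain, had no count. FN1, fibronectin, was at 401, 1767 and 2621 CPM in serum-starved libraries, against 163, 686 and 932 CPM in FBS libraries (log2 fold change 1.43, edgeR adjusted p = 0.398), with replicate 1 lowest in both groups. SDC1, the surface proteoglycan syndecan-1, was at 263 ± 55.5 CPM in serum-starved cells and 238 ± 39.1 CPM in FBS cells (SD, n = 3). Of 10 AP-1 and ETS factors, which act on MMP promoters, all were tested and none passed (median 0.03). FOSL1 was at 517, 460 and 277 CPM in serum-starved libraries, against 594, 687 and 618 CPM in FBS libraries (log2 fold change -0.60, edgeR adjusted p = 0.536), a difference without overlap. JUND had a log2 fold change of 0.89 (edgeR adjusted p = 0.362) and JUN one of -0.10 (edgeR adjusted p = 0.937).

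**Figure D4:**
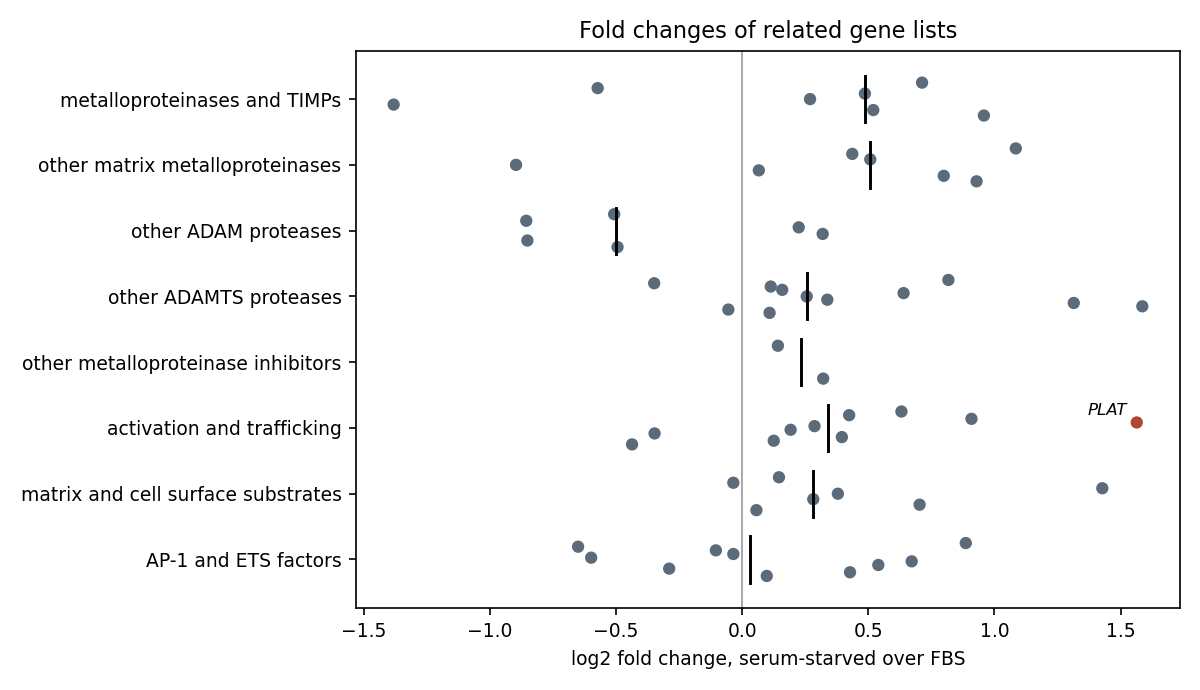
Log2 fold change, serum-starved over FBS, of each tested gene in 8 lists; black bars are list medians and the red point is the gene that passed the test over all genes. PLAT, at 1.56, is the only red point.

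The protein-coding gene with the most similar pattern over the 6 libraries was looked up for each tested member among 8867 genes of at least 5 CPM. It was EVA1A for MMP1 (Pearson r of log2 CPM 0.991), TNFSF9 for MMP14 (0.981), MTSS1L for MMP15 (0.997) and KDM5A for ADAM17 (0.994). It was TCF7L2 for ADAMTS1 (0.989), S100A11 for TIMP1 (0.996) and CEP68 for TIMP2 (0.981). These are the highest of 8867 values over 6 points that share library depth, GC and length trends, and they are given as a description only.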

How the data were processed

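RNA of 6 Ovcar8 libraries was analysed, 3 serum-starved and 3 with FBS, grouped by the labels. The submitters' processing notes name GRCh38, STAR 2.6.1 and DESeq2; their roles and the counting tool are not given here. Per the file headers, the authors deposited raw counts per gene and library, which are whole numbers, and FPKM values. The deposited FPKM carry the authors' between-library scaling: they equal the count per kilobase divided by the library's DESeq2 size factor and a constant. All 58735 gene IDs and coordinates matched GENCODE 29.

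Counts were tested with edgeR 4.0.16 in R 4.3.3 (filterByExpr with a minimum count of 10 and a minimum total of 15, TMM, robust quasi-likelihood fit, Benjamini-Hochberg adjustment, threshold 0.05). CPM are TMM-normalized. The SE is the log2 fold change divided by the square root of F. Scripts were tested on simulated data. The alternatives were RLE scaling, total counts, 2 other filters, DESeq2 1.42.0, limma 3.58.1 (voom, or on log2(FPKM + 1) and log2(FPKM + 0.1)), a replicate block, a GC and length correction (splines with 5 degrees of freedom as offsets) and each library left out. All 9 members are named, with the context genes that passed and the 3 of each list with the highest mean FPKM. PAX8, EPCAM, WT1, CDH1, MUC16, KRT19, DCN, COL1A2, VCAN, PLG, VWF, IAH1 and SYN3 were named after their values were seen. The members, lists and alternatives were chosen with earlier results of these data known. Protein sequences were not used here.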

Additional observations from a re-analysis of the deposited data

How the results depend on the processing

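Of 126 member fold changes recomputed (7 members under 18 alternatives), 125 kept their direction and their side of the threshold and none turned its direction; MMP1 passed with no filter on low counts, where the number of members called was 1, and the cause was not tested. Over all genes the count of calls was 39, against 25 with total counts alone, 127 with no low-count filter, 160 with DESeq2, 2 with limma on log2(FPKM + 1) and no filter, 115 with the GC and length correction and 145 with that correction and a replicate block. With single libraries left out it ran from 4 (FBS replicate 1) to 257 (serum-starved replicate 3). The next highest was 65 (serum-starved replicate 1). Serum-starved replicate 3 was also the library that alone was high for ADAM17 and alone was low for TIMP1. Of the context genes 1 passed, against 0 with total counts alone, 2 with no low-count filter (PLAT and FN1), 0 with log2(FPKM + 0.1), 0 with log2(FPKM + 1) and no filter, and 2 with the GC and length correction (PLAT and JUND); with single libraries left out it was 0 to 3. The cause of these shifts was not tested. With a replicate block alone 43 genes and 0 members were called. Same-numbered libraries did not deviate together (correlations of -0.26, 0.10 and -0.08), and 1 of the 3 serum-starved libraries correlated best with its own number, so the numbers were not taken as pairs.

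The floors cover counting error only, while the 95% intervals of the fold changes also hold the spread between libraries. These intervals reach changes of over 1.5-fold in at least 1 direction, so a p that misses the threshold does not show that a member was unchanged. Depth limits MMP2 and TIMP3 to the floors given.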
